A study of Mus musculus with 6 samples.

Results

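The let-7e/miR-99b/miR-125a cluster is a run of 3 microRNA (miRNA) hairpins on mouse chromosome 17 that give 6 mature strands. Its members were found by name in the deposited table, where all 6 (mmu-let-7e-5p, mmu-let-7e-3p, mmu-miR-99b-5p, mmu-miR-99b-3p, mmu-miR-125a-5p and mmu-miR-125a-3p) were listed among 1184 miRNAs. The prefix mmu, for mouse, is left off from here on. Small RNA libraries were made from GMLPs, a cell population sorted from bone marrow and then cultured for 3 days with DOX (doxycycline, an antibiotic that drives inducible transgenes). The ME group (n = 3) had the genotype MLL-ENL, a fusion gene of acute leukaemia, and the L28BME group (n = 3) had the genotype LIN28B MLL-ENL, so both groups carried MLL-ENL and both received DOX. The sources used here give neither the promoters of the transgenes nor the age of the mice, nor do they say whether each library had its own mouse. P-values thus reflect how far these libraries spread, and that spread could be technical.

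A primary transcript that holds several hairpins is cut in the nucleus by Drosha, each hairpin is then cut by Dicer, and 1 strand of each, the guide, is mostly kept by an Argonaute protein and directs it to target mRNAs through its seed. LIN28B, an RNA-binding protein of fetal cells, binds let-7 precursors and holds back their maturation. It does so after transcription, which is why the hairpins beside a let-7 on the same transcript make a useful comparison. let-7 strands restrain growth and fetal gene programmes, the miR-99 family is known for repressing the growth kinase gene Mtor, and miR-125 strands are known for expanding blood stem cells when overexpressed in mice.

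The mature sequences follow, as RefSeq gives them on GRCm38.p6, with the seed (bases 2 to 8) in capitals. They are shown because the seeds place the 3 guides in 3 different target families.
let-7e-5p: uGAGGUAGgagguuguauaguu
let-7e-3p: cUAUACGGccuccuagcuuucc
miR-99b-5p: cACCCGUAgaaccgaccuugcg
miR-99b-3p: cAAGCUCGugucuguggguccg
miR-125a-5p: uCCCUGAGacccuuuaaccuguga
miR-125a-3p: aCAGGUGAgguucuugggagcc

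The 5p strand is the guide of each hairpin by abundance in these libraries. The seed of let-7e-5p was held by 11 of the 1679 mature strands searched, most of them named let-7. The seed of miR-99b-5p was held by 3 (miR-99a-5p, miR-99b-5p and miR-100-5p). That of miR-125a-5p was held by 5, of which miR-125a-5p, miR-125b-5p and miR-351-5p were listed in this series.

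The hairpins lie in the order Mir99b, Mirlet7e, Mir125a within 692 bases of the plus strand (GRCm38). Mir99b is at chr17:17830188-17830257. Mirlet7e, at chr17:17830352-17830444, begins after 94 bases between the 2, and Mir125a, at chr17:17830812-17830879, after a further 367. All lie inside Spaca6 (chr17:17827158-17843009), a gene named for a sperm acrosome protein. In GENCODE M21 the first 2 hairpins are intronic, while 47 bases of Mir125a overlap an exon of 1 non-coding Spaca6 transcript. Gm25927, a predicted miRNA gene, is annotated on the strand opposite Mirlet7e.

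LIN28 proteins are known to touch precursors at the letters GGAG, so 2 hairpins are shown with every GGAG in capitals.
Mirlet7e: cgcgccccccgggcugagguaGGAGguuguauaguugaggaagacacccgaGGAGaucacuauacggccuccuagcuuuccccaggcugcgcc
Mir125a: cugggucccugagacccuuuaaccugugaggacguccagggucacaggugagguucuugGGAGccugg

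In Mirlet7e, 1 GGAG lay in the 23 bases between the 2 mature strands, and the other began at base 8 of the guide itself. In Mir125a the 14 bases between the strands held 0, and its 1 GGAG lay within the mature strand miR-125a-3p, near the hairpin's 3′ end. The search was of the RNA as printed. Between their strands, 52 of 644 RefSeq mouse hairpins with both strands placed held the motif (8.07%, over a median length of 16 bases), as did 7 of 10 other let-7 family hairpins. Within the mature strand it was present in 14.2% of all strands, and among the let-7 guides in let-7e-5p and let-7k alone. A match describes letters and not a bound site.

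ME libraries held 4778027 to 5528960 reads, and L28BME libraries 2745970 to 4332618. Values below are the deposited scaled values, in which 1 read was worth 0.189 to 0.312. They count reads per mature strand, and the members' strands are 22 to 24 bases long. Values of different strands are not corrected for how readily each is captured into a library. Of 387 miRNAs that passed the filter (3 or more libraries at a value of 5 or above), limma called 93 higher (24%) and 124 lower (32%) in L28BME, with a median log2 change of -0.01. The sum of the 4 myeloid markers ranged from 150883 to 176087 among ME libraries, and from 161377 to 177800 among L28BME libraries. Of these markers, miR-155-5p was 8806, 9456 and 9346 in ME and 6468, 6170 and 6350 in L28BME. Its groups did not overlap, as was so in this direction for 33.6% of all tested miRNAs, while those of the other myeloid markers did. Of 4 listed erythroid markers, all were under a value of 6 in every library, with miR-144-3p at 0 in all ME libraries, and the sum was 4.41 to 7.12 for ME against 9.68 to 10.8 for L28BME. The stromal and endothelial sum rose from between 185 and 205 to between 350.4 and 360.4, nearly all of it miR-199a-3p. Of the other strands found from that list, miR-143-3p was at most 3.08 and miR-199a-5p at most 1.16. The last, miR-145a-5p, was 0 in 3 of 6 libraries and at most 0.625. Markers of nerve, liver and muscle summed to 20.6 to 28.03 and 26.5 to 31.6, with 4 of 5 listed. The part of other cells in the results below was not tested, and in bulk RNA fewer cells of a type and less RNA per cell cannot be told apart.

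L28BME cells had lost most of their let-7e-5p and kept both of its partners. The guide of the let-7 hairpin fell, the guide of the hairpin before it, miR-99b-5p, rose modestly, and the guide of the hairpin after it, miR-125a-5p, did not pass the test. Thus 1 of the 4 members tested was called higher, beside 24% of all miRNAs, and 1 lower, beside 32%, so the counts by themselves set the cluster apart in neither direction. let-7e-3p and miR-125a-3p stayed under the filter.

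let-7e-5p was 191.5, 178.8 and 181.7 in the 3 ME libraries and 13.2, 14.9 and 14.1 in the 3 L28BME libraries. Every ME library was more than 10 times above every L28BME library; in this direction the groups did not overlap for 33.6% of all tested miRNAs. The means were 184 ± 6.67 and 14.1 ± 0.841 (SD, n = 3), 13.1-fold lower in L28BME (log2 change -3.62, SE 0.11, limma adjusted p = 1.99e-13). The value in L28BME rests on 45 to 70 reads a library, against 766 to 826 in ME. In the authors' deposited table its log2 fold change was -3.71, with an FDR p listed as 0.

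miR-99b-5p was 44.1, 46.8 and 43.4 in ME and 57.5, 78.1 and 54.7 in L28BME. The groups did not overlap, as was so in this direction for 27.9% of all tested miRNAs, and L28BME library 005 stood above the other 2. The mean was 1.42-fold higher (44.8 ± 1.80 against 63.4 ± 12.8, SD, n = 3; log2 change 0.48, SE 0.13, limma adjusted p = 0.00799). Without library 005 the log2 change was 0.32 and the limma adjusted p = 0.0484. The authors' deposited table gave it an FDR p of 0.00371.

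miR-125a-5p was 139.8, 123.6 and 120.0 in ME and 119.5, 124.5 and 112.7 in L28BME, and the groups overlapped. The means of 128 ± 10.5 and 119 ± 5.92 (SD, n = 3) differed by -0.10 on the log2 scale (95% interval -0.31 to 0.11, limma adjusted p = 0.403). With plain library-size scaling it was instead higher, by 0.39 (limma adjusted p = 0.00220), beside a median of all tested miRNAs that moved to 0.49. The other partner and let-7e-5p kept their calls under that scaling, with log2 changes of 0.96 and -3.14.

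**Figure D1:**
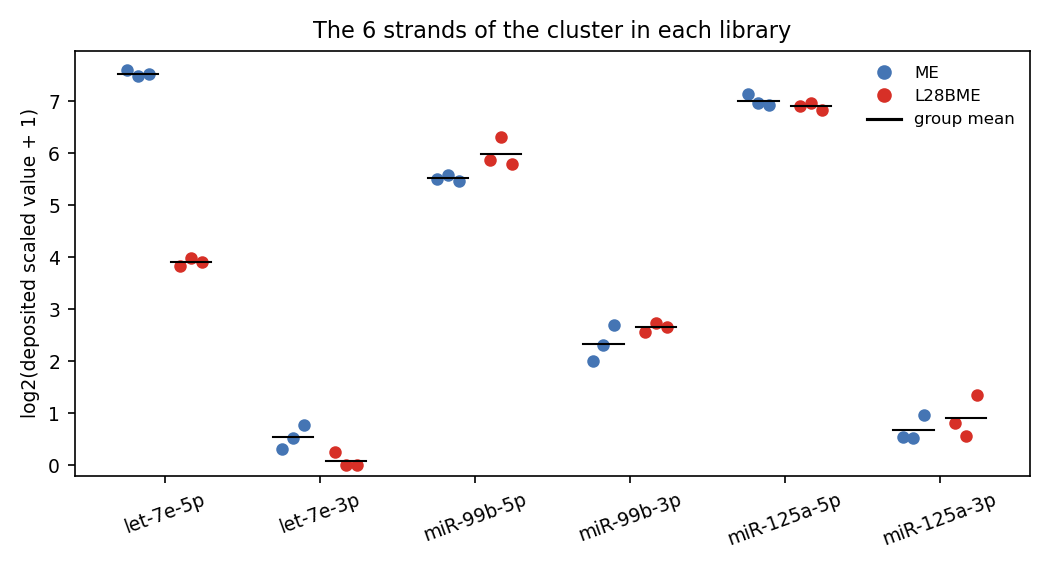
Each point is 1 library, 3 of ME (blue) and 3 of L28BME (red); the vertical axis is log2 of the deposited scaled value plus 1, and the bar is the group mean on that scale. The let-7e-5p points differ by -3.62 log2 units, miR-99b-5p by 0.48 in the other direction, and the miR-125a-5p points overlap.

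**Figure D2:**
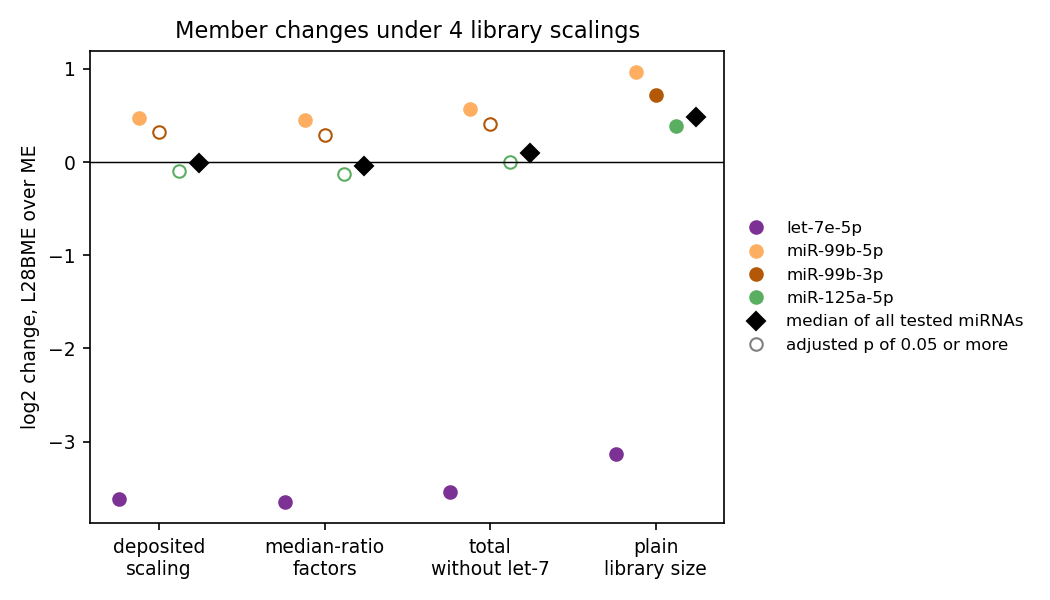
Log2 change of L28BME over ME for the 4 tested members (circles, open where the adjusted p was 0.05 or more) and the median of all tested miRNAs (diamonds), under 4 ways of scaling the libraries. let-7e-5p stays between -3.65 and -3.14, while miR-125a-5p crosses 0 with plain library size, where the median also moves, to 0.49.

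Because strands of 1 primary transcript are read in the same library, their ratio is free of the scaling, apart from the pseudocount. In ME let-7e-5p was the most abundant of the 3 guides. In L28BME it was the scarcest, and the order of the partners stayed as it was. The order was let-7e-5p, miR-125a-5p, miR-99b-5p in every ME library and miR-125a-5p, miR-99b-5p, let-7e-5p in every L28BME library, and no 2 neighbours overlapped within a group.

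The ratio of let-7e-5p to miR-125a-5p was 1.37, 1.45 and 1.51 in ME and 0.111, 0.120 and 0.125 in L28BME. The 2 ranges lie on opposite sides of 1. The mean ratio was 12.2-fold lower (log2 difference -3.52, SE 0.14, 95% interval -3.82 to -3.22, limma adjusted p = 1.25e-11). Relative to miR-125a-5p, 17.4% of all miRNAs were called lower and 25.6% higher.

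The ratio of let-7e-5p to miR-99b-5p was 4.35, 3.82 and 4.19 in ME and 0.230, 0.191 and 0.257 in L28BME. This was the larger of the 2 shifts, and miR-99b-5p itself was higher in L28BME. The log2 difference was -4.10 (SE 0.16, 95% interval -4.44 to -3.75, limma adjusted p = 1.03e-11), beside 55.2% of all miRNAs called lower relative to miR-99b-5p and 3.63% called higher. For both ratios an exact permutation test over libraries gave p = 0.1 (two-sided), the smallest that 3 against 3 allow.

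The partners also moved apart from each other. miR-99b-5p stood at 0.315, 0.379 and 0.362 of miR-125a-5p in ME and at 0.481, 0.627 and 0.485 in L28BME, without overlap. The log2 difference was 0.58 (SE 0.16, limma adjusted p = 0.0101). It was 0.45 without L28BME library 005, and the limma adjusted p was then 0.0628, not past the threshold.

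**Figure D3:**
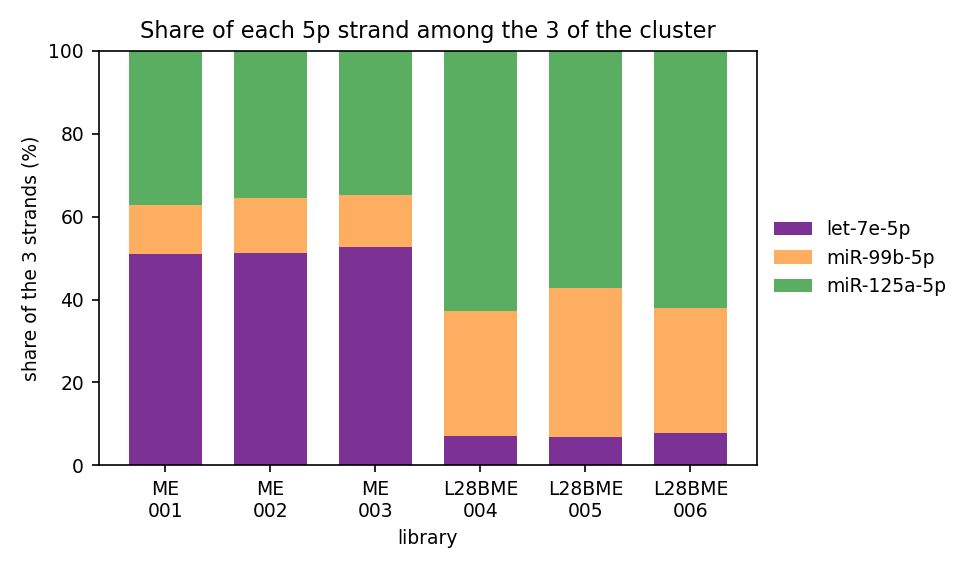
Each bar is 1 library, and its segments are the shares (%) of let-7e-5p, miR-99b-5p and miR-125a-5p in the sum of the 3. The let-7e-5p segment takes 51.0 to 52.6% in ME and 6.86 to 7.75% in L28BME.

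Of the reads of the 3 guides, let-7e-5p took 51.6% ± 0.891 in ME and 7.19% ± 0.487 in L28BME (SD, n = 3). miR-125a-5p took 35.8% ± 1.28 and 60.7% ± 3.05, and miR-99b-5p took 12.6% ± 0.833 and 32.1% ± 3.31. Each of these shares gave an exact permutation p = 0.1, the smallest possible. Summed, the 3 guides went from 357 ± 16.4 to 196 ± 18.9, whereas the 2 partners together were 173 ± 10.4 and 182 ± 18.2 (SD, n = 3).

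The opposite strands were scarce throughout. miR-99b-3p, the most abundant of them, was 3.01, 3.97 and 5.46 in ME and 4.92, 5.68 and 5.31 in L28BME. The groups overlapped (log2 change 0.32, 95% interval -0.16 to 0.80, limma adjusted p = 0.236). It passed the filter with a value of at least 5 in exactly 3 libraries, only 1 of them ME, and with plain library-size scaling it was called higher (0.72, limma adjusted p = 0.00840). Relative to its own guide it differed by -0.16 on the log2 scale (95% interval -0.71 to 0.39, limma adjusted p = 0.606). It made up 8.45% of the reads of its hairpin in ME (54 of 639, exact binomial 95% interval 6.41 to 10.9) and 7.65% in L28BME (67 of 876, 5.98 to 9.61).

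let-7e-3p had 1, 2 and 3 reads in the ME libraries and 1, 0 and 0 in L28BME. The scaled ratio of the pooled reads was 0.171, with an exact 95% interval of 0.00372 to 1.41 that includes 1. At this depth a change in this strand was not detectable. Its share of the hairpin's reads was 0.249% in ME (6 of 2408, interval 0.0915 to 0.542) and 0.559% in L28BME (1 of 179, 0.0141 to 3.07). miR-125a-3p had 8 reads over the ME libraries and 11 over the others. Its scaled ratio was 1.41 with an exact interval of 0.517 to 4.04, and it took 0.477% and 0.719% of the reads of its hairpin. Without a filter neither strand passed limma (adjusted p = 0.0842 for let-7e-3p and 0.652 for miR-125a-3p). Read intervals cover counting error only.

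let-7e-5p fell less than nearly all of its family. The list of let-7 guides had 10 tested members, all called lower, beside 32% of all tested miRNAs, with a median log2 change of -7.28 against -0.01 over all tested miRNAs. This list is not the set of strands with the seed of let-7e-5p, as let-7j differs from it at base 8, within the seed. With plain library-size scaling 9 of the 10 kept that call, and let-7c-5p did not (-0.02, limma adjusted p = 0.757). In order of their falls let-7e-5p came ninth of 10, before let-7c-5p. Relative to let-7e-5p itself, 8 of the 9 other tested guides were called lower in L28BME and let-7c-5p was called higher.

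The nearest guide below it was let-7b-5p, whose ratio to let-7e-5p went from 72.4 ± 1.83 to 14.0 ± 0.433 (SD, n = 3; log2 difference -2.45, limma adjusted p = 2.23e-11). let-7a-5p went from 255 ± 7.52 to 45.8 ± 0.708 times let-7e-5p (log2 difference -2.56, limma adjusted p = 9.85e-12). At the far end stood let-7i-5p, from 454 ± 31.5 to 15.0 ± 0.588 times (log2 difference -5.003, limma adjusted p = 3.62e-13). let-7c-5p went the other way, from 198 ± 10.4 to 1806 ± 94.9 times let-7e-5p (log2 difference 3.10, limma adjusted p = 1.60e-12).

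Across all miRNAs, 15 (3.89%) were called lower relative to let-7e-5p and 370 (95.9%) higher. The 15 were 8 let-7 guides and 7 let-7 star strands (the strands opposite the guides), with 0 from outside the family. Those 7 star strands passed the filter through their ME values alone. In L28BME they were at most 1.51 in any library, so the size of their log2 differences depends on the pseudocount. Of the 9 tested star strands let-7a-1-3p was among the miRNAs called higher relative to let-7e-5p (log2 difference 1.67, limma adjusted p = 5.76e-08), its own log2 change being -1.95. The miRNA that was called in neither direction was let-7c-1-3p, the star strand of Mirlet7c-1, with a log2 difference of 0.41 (limma adjusted p = 0.161), although 2 of its 3 L28BME values were 0, where the pseudocount decides the difference.

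**Figure D4:**
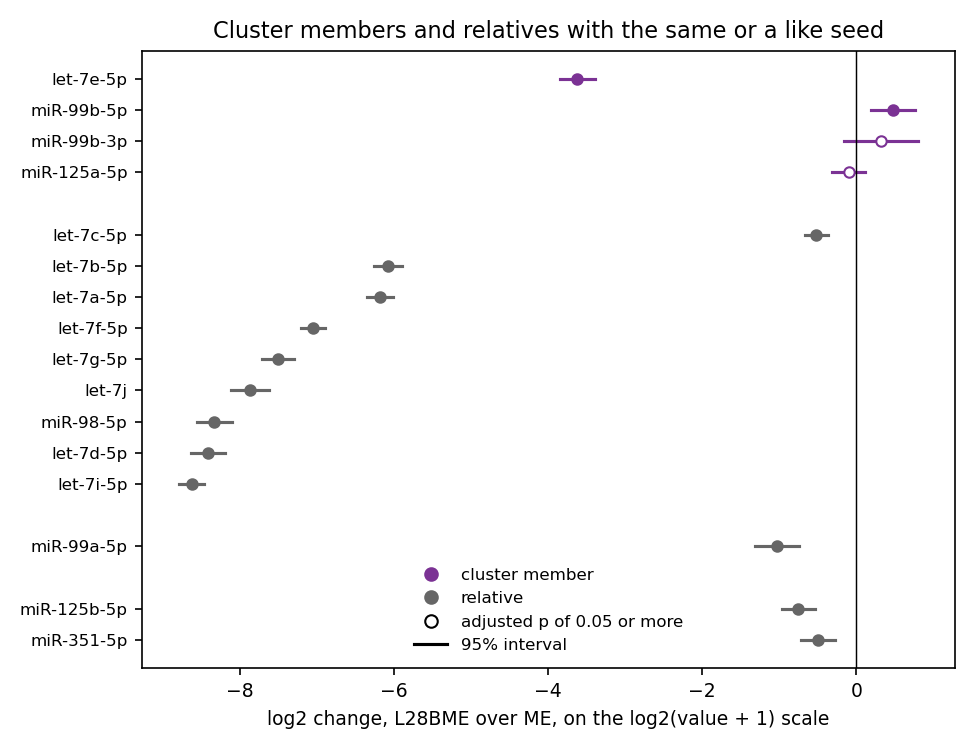
Log2 change of L28BME over ME (points, filled where the adjusted p was under 0.05) with its unadjusted 95% interval, for the 4 tested cluster members (purple) and their relatives (grey). let-7e-5p, at -3.62, lies between let-7c-5p at -0.52 and let-7b-5p at -6.07.

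In level, let-7e-5p was the scarcest tested guide in ME, with let-7j, the next above, at 8.14 ± 0.573 times its value (SD, n = 3). In L28BME it was eighth of 11 listed guides, above miR-98-5p and let-7j. Its L28BME values of 13.2 to 14.9 overlapped those of miR-98-5p (14.0, 11.1 and 10.9) and lay above those of let-7j (4.73, 6.39 and 5.31). Of all let-7 guide reads let-7e-5p took 0.0583% ± 0.00239 in ME and 0.0514% ± 0.00273 in L28BME. With let-7c-5p left out of that sum, a choice made after its value was seen, the share was 0.0659% ± 0.00264 and 0.706% ± 0.0288 (SD, n = 3). Both shares differed without overlap, in opposite directions, each with an exact permutation p = 0.1.

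Single let-7 guides are uncertain to the extent that reads of near-identical strands were split in counting. The sequences shown for comparison are the guide nearest to let-7e-5p and the guide that stayed abundant in L28BME.
let-7a-5p: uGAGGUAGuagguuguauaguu
let-7c-5p: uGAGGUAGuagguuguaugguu

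Counted from 1 at the 5′ end, with the base of let-7e-5p first, let-7a-5p differs by G9U alone, and let-7c-5p by G9U and A19G. G9U sets let-7e-5p apart from 9 of its 10 relatives on the list, the exception being let-7k, compared over 19 bases, which had a mean of 0.694 in ME and was 0 in every L28BME library. In L28BME let-7c-5p was 1806 times and let-7a-5p 45.8 times as abundant as let-7e-5p. How reads were assigned among these strands was not tested.

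The miR-99 and miR-125 guides of this cluster also parted from their seed relatives, which are made from other transcripts. The 2 tested members of the miR-99/100 family went in opposite directions, miR-99b-5p up and miR-99a-5p down. Of 3 tested members of the family of miR-125 and miR-351 2 were called lower, beside 32% of all tested miRNAs, with miR-125a-5p not past the threshold. Scaled by plain library size, 1 of the 3 stayed lower (miR-125b-5p), miR-351-5p was at -0.0017 (limma adjusted p = 0.990) and miR-125a-5p was called higher. The relatives are shown for the bases in which they differ outside the shared seed.
miR-99a-5p: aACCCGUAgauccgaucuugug
miR-125b-5p: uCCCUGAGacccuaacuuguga
miR-351-5p: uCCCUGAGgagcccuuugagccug

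miR-99a-5p differs from miR-99b-5p at 4 positions (C1A, A11U, C16U and C21U), and miR-125b-5p from miR-125a-5p at 7 of the 22 they share from the 5′ end. miR-99a-5p, which shares a transcript with let-7c-5p of Mirlet7c-1, was 97.6, 135.3 and 127.9 in ME and 65.6, 54.5 and 54.0 in L28BME. It outnumbered miR-99b-5p in every ME library, by 2.22 to 2.95 times. In L28BME the ratio was 1.14, 0.697 and 0.989, so that miR-99b-5p was level with it or above in 2 of 3 libraries. The log2 difference of the ratio was -1.51 (SE 0.19, limma adjusted p = 2.18e-05). miR-99b-5p made up 27.3% ± 3.25 of the miR-99/100 family in ME and 51.9% ± 6.32 in L28BME (SD, n = 3; exact permutation p = 0.1). The third member, miR-100-5p, was at most 0.567 in any library.

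miR-125b-5p, made from Mir125b-1 and Mir125b-2, was 399, 363 and 335 in ME and 198, 239 and 213 in L28BME. It remained the more abundant of the pair in each library. Its ratio to miR-125a-5p went from 2.86 ± 0.0739 to 1.82 ± 0.143 (SD, n = 3; log2 difference -0.65, SE 0.13, limma adjusted p = 0.00124). miR-351-5p, an X-linked strand with the miR-125 seed, went from 5.02 ± 0.749 to 3.79 ± 0.281 times miR-125a-5p (log2 difference -0.40, limma adjusted p = 0.0369). That call was lost when any library but ME 001 was left out (limma adjusted p = 0.0585 without ME 002, 0.0831 without ME 003, 0.130 without L28BME 004, 0.0640 without 005 and 0.0971 without 006). miR-125a-5p took 11.3% ± 0.851 of the family of miR-125 and miR-351 in ME and 15.2% ± 1.001 in L28BME (exact permutation p = 0.1).

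**Figure D5:**
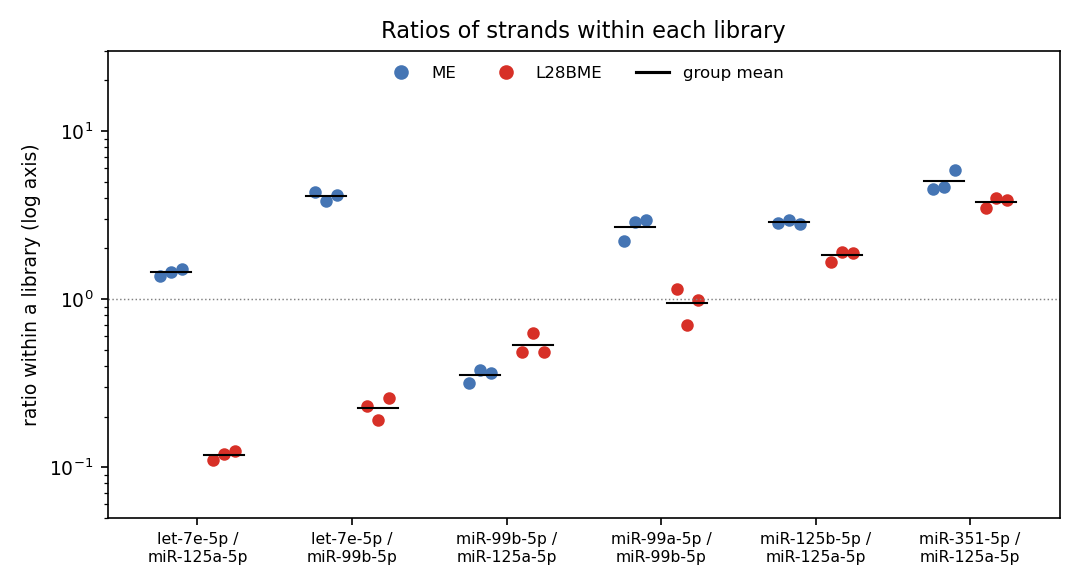
Each point is the ratio of 2 strands within 1 library (log axis; blue ME, red L28BME; the bar is the mean). Ratios of let-7e-5p to its partners drop from 1.44 and 4.12 to 0.118 and 0.226, while miR-99b-5p gains on miR-125a-5p and both partners gain on their relatives of other transcripts.

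On the 2 clusters elsewhere in the genome that are built alike from a let-7, a miR-99 or miR-100 and a miR-125b hairpin, 8 of 11 listed strands were in the table, 6 were tested and all 6 were called lower, beside 32% of all tested miRNAs (median log2 change -0.89). With plain library-size scaling 4 of the 6 kept that call, and let-7c-5p (-0.02, limma adjusted p = 0.757) and miR-125b-2-3p (-0.11, limma adjusted p = 0.572) did not. Among the 6 were the let-7 strands let-7a-5p, let-7c-1-3p and let-7c-5p, with log2 changes of -6.18, -3.21 and -0.52 under the deposited scaling. Of them, let-7c-1-3p passed the filter through its ME values alone. Under the same scaling miR-125b-2-3p changed by -0.56. miR-99a-5p had a log2 change of -1.03 and miR-125b-5p one of -0.75 (limma adjusted p = 1.63e-05 and 2.72e-05), against -0.54 and -0.26 with plain library-size scaling. Relative to miR-99b-5p, the partner miR-99a-5p and the guide let-7c-5p were both called lower, with log2 differences of -1.51 and -0.996 (limma adjusted p = 2.18e-05 and 0.000109), as were 55.2% of all miRNAs. let-7a-5p and let-7c-5p are each made from more than 1 locus, so their values do not belong to these clusters alone. miR-125b-5p is made from Mir125b-1 and Mir125b-2, which lie 1 in each of the 2 clusters, so its value cannot be split between them.

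The miRNAs most like each tested member over the 6 libraries were found by the Euclidean distance between log2 values centred on their own mean, among 386 others. let-7e-5p was nearest to let-7c-1-3p (0.63), let-7b-3p (1.42) and let-7f-2-3p (1.59), all let-7 star strands. These star strands had 1, 9 and 13 reads over the L28BME libraries, so the distances depend on the pseudocount. Their means were 140-, 58.2- and 54.6-fold lower in L28BME, against 13.1-fold for let-7e-5p, and these folds rest on the same few reads. Relative to let-7e-5p, let-7c-1-3p was called in neither direction (log2 difference 0.41, limma adjusted p = 0.161). let-7b-3p and let-7f-2-3p were called lower (-1.04 and -1.15, limma adjusted p = 0.000739 and 0.000392). All 3 passed the filter through their ME values alone. miR-99b-5p was nearest to miR-19a-3p (0.33), miR-669a-3p (0.36) and miR-299a-3p (0.36). For miR-125a-5p the nearest were miR-326-3p (0.09), miR-23a-3p (0.11) and miR-674-3p (0.12), none of them past the limma threshold. miR-99b-3p was nearest to miR-501-3p (0.35), miR-32-5p (0.41) and miR-1981-5p (0.43).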

How the data were processed

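The members and lists were chosen with earlier results of these data known. Per the labels' protocols the library kit was QIAseq miRNA, and the build was GRCm38, per the submitters' processing notes. The sources used here name no aligner or counter. The authors deposited 1 table of 1452 features with a scaled signal that is called CPM per the file headers. Dividing a library by its lowest value above 0 gave whole numbers for 100% of its values (tolerance 0.001), taken as reads. The authors also deposited log2 fold changes, a signed fold (a score) and p-values that compare L28BME with ME, with no tool named per the file headers. Columns are named by group and by library, 001 to 006, not by the labels' replicate number.

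All miRNAs that reached a value of 5 in 3 or more libraries were tested on log2(value + 1) with limma (trend, two-sided). The threshold was a Benjamini-Hochberg adjusted p of 0.05 over all of them. The pseudocount shrinks the log2 change of scarce strands, and linear folds were taken between group means. For ratios the log2 value of the reference strand was subtracted from every row. Rows of such a fit share the noise of the reference, so the variance prior was taken from the fit without subtraction. This replaced the planned prior, estimated from the subtracted rows. Between replicates the chi-square per degree of freedom was 11.1 to 59.7, above sampling noise. Named miRNAs are the members, their lists and the 3 nearest patterns. The code was tested on simulated data. Alternatives were other scalings, filters, pseudocounts and variance models, DESeq2, and edgeR's quasi-likelihood test, on recovered reads (93 and 135 called higher and lower by edgeR), and each library left out. Sequences are RefSeq's (GRCm38.p6) and annotation is GENCODE M21. Tests used limma 3.58.1 in R 4.3.3. Alternatives used DESeq2 1.42.0 and edgeR 4.0.16, and plots matplotlib 3.10.9.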

Additional observations from a re-analysis of the deposited data

How the results depend on the processing

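Of 393 recomputed values, over 32 results and 18 alternatives, 378 kept their direction and side of the threshold (or stayed within the allowed range for a value with no test). Part of this was fixed in advance. Shares from recovered reads equal those from scaled values, because a library's scaling cancels. With limma, other filters, no trend or the other prior leave each strand's log2 change as it was. Plain library size gave 255 miRNAs higher and 33 lower, 3 members higher, miR-99b-3p 0.72 and miR-125a-5p 0.39 with the sign turned; the median of all tested miRNAs moved to 0.49, and to 0.09 with the total without let-7. The ratio of miR-351-5p to miR-125a-5p was not past the threshold without a filter (-0.40, limma adjusted p = 0.0526) or without trend (-0.40, limma adjusted p = 0.0658), and ran from -0.47 to -0.28 with a library left out. That of miR-99b-5p to miR-125a-5p ran from 0.45 to 0.64, with the call lost without L28BME library 005. The cause was not tested. edgeR's ratio fits also share the reference's noise. The variance prior used for the ratios and the family without let-7c-5p were chosen after seeing the data; the prior first planned, from the subtracted rows, changed no call among the ratios recomputed with it. No paired analysis was possible because the columns carry no replicate numbers. Scarce strands limit the data: let-7e-3p had 6 reads in ME and 1 in L28BME.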
